A study of Caenorhabditis elegans with 6 samples.

Results

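The *ttr* genes of *Caenorhabditis elegans* form the transthyretin-related family, and their transcripts were followed in newly hatched L1 larvae. Members were all genes of the deposited count table whose gene name is *ttr-* followed by a number and which had 10 or more counts summed over the 6 libraries. Of the 20351 genes in the table, 54 carried such a name and 44 reached the minimum. The rule used the total over both groups and not the difference between them. The member nearest to the minimum was *ttr-22* with 11 counts, and the highest sum among the 10 genes left out was 4 counts.

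Transthyretin carries thyroid hormone in vertebrate blood and cerebrospinal fluid. Nematodes have a large family of small proteins that resemble it in sequence, most of them carrying a signal for secretion, and for most of these genes in *C. elegans* no function is settled. Among the exceptions, TTR-52 is a secreted protein that links phosphatidylserine exposed on dying cells to the engulfment receptor CED-1, TTR-11 links phosphatidylserine to integrin in axon regeneration, and TTR-33 protects dopaminergic neurons against oxidative damage.

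All 6 libraries came from whole worms of the wild-type strain N2, 3 in each group. The parents were fed from day 1 of adulthood for 24 hours, either with bacteria for RNA interference (RNAi) against *elt-2* or with bacteria carrying the empty vector as control, and their embryos hatched overnight in S-Basal, a buffer without food. *elt-2* encodes the GATA transcription factor that maintains the intestine, and the comparison asks which transcripts differ in larvae whose parents were fed the *elt-2* RNAi. Poly-A RNA was sequenced from the 3′ end of each transcript (3SEQ), which gives a count that depends little on gene length, so levels are given as CPM, the count scaled to a common library size and not divided by length. The RNA is that of whole larvae, so fewer cells of a type and less RNA per cell cannot be told apart.

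The libraries held between 13700707 and 22124319 counts. A count of 3, taken as the lower limit of detection, corresponded to between 0.135 and 0.244 CPM after scaling by the trimmed mean of M-values (TMM). Control library B stood apart, with a TMM factor of 0.616 against 0.885 to 1.39 in the others. The targeted gene *elt-2* was read 32, 40 and 21 times in control libraries A, B and C, and 21, 34 and 44 times in RNAi libraries A, B and C. The *elt-2* level was 2.18 ± 0.974 CPM (SD, n = 3) in the control and 1.55 ± 0.506 CPM in the other group, a log2 fold change of -0.48 (SE 0.46, edgeR adjusted p = 0.66). A lower level of the targeted transcript was thus not detectable in these libraries at this depth. The study reports a knockdown from reduced *elt-2* RNA in quantitative RT-PCR and from larval arrest. The arrest was seen in most but not all progeny, days after hatching. Both observations lie outside these files. Every direction given here is that of the libraries labelled *elt-2* RNAi relative to control.

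The *ttr* genes spanned more than 3 orders of magnitude in total counts, from 11 to 16973 with a median of 426.5. Of the 44 members, 41 had a count in every library and 38 lay above the limit of 3 counts in every library. By mean level in the control, 2 members reached 100 CPM, 12 lay between 10 and 100 CPM, 23 lay between 1 and 10 CPM, and 7 were under 1 CPM. When the members were ordered by this level, no pair of neighbours among the 43 had control values that did not overlap, so the order of adjacent genes is not resolved.

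The expression filter of edgeR kept 38 members for testing. The 6 others (*ttr-7*, *ttr-10*, *ttr-14*, *ttr-22*, *ttr-40* and *ttr-42*) had sums of 11 to 42 counts and never exceeded 0.836 CPM in a library. *ttr-52*, the bridging protein of cell corpse clearance, had no count in any of the 6 libraries, as had *ttr-28* and *ttr-56*. *ttr-11* had 1 count in control library B and 1 count in RNAi library C. These genes were therefore at or under the limit of detection in L1 larvae of both groups, and no fold change is given for them.

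**Figure D1:**
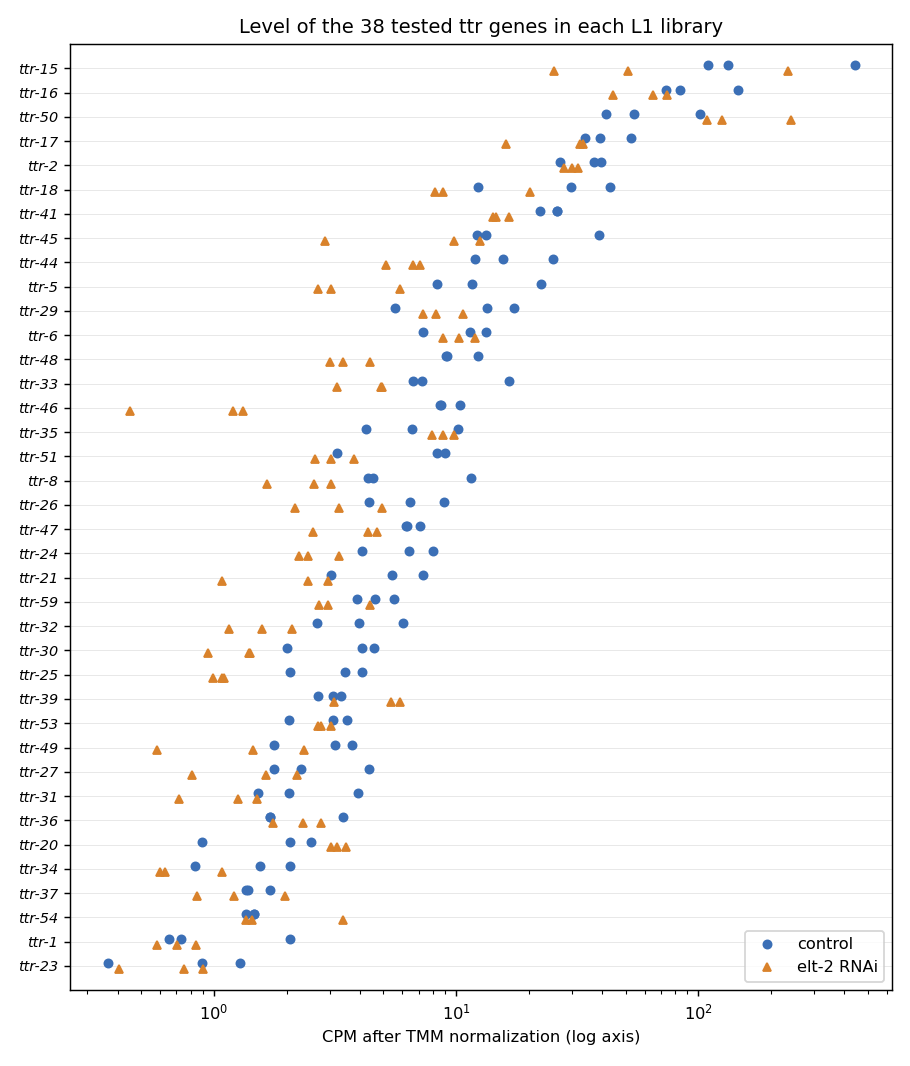
Levels of the 38 tested *ttr* genes in each library. Each point is the CPM of one library after TMM normalization (log axis), circles for the 3 control and triangles for the 3 *elt-2* RNAi libraries, with genes ordered by mean control level from *ttr-23* (0.848 CPM) to *ttr-15* (228 CPM); the triangles of *ttr-46* lie apart from its circles.

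In the libraries labelled *elt-2* RNAi, 3 of the 38 tested *ttr* genes were lower at a false discovery rate of 10% and none was higher. The 3 were *ttr-46*, *ttr-48* and *ttr-25*. They amount to 7.89% of the tested members, where 2.61% of all 10063 genes tested were called lower. Of all genes, 0.199% were called higher. At an unadjusted p under 0.05, edgeR had 13 members lower (34.2%, against 10.2% of all genes) and 1 higher (2.63%, against 4.33%). The DESeq2 Wald test called 6 members lower and 0 higher, where it called 5.15% of all genes lower and 0.894% higher. With no threshold, 32 of the 38 members (84.2%) had a log2 fold change below 0, against 46.3% of all genes tested. The median log2 fold change of the members was -0.89, with quartiles of -1.27 and -0.22, and that of all genes was 0.06. A log2 fold change of -1 or lower was found for 16 members (42.1%) and for 12.6% of all genes.

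The largest difference was that of *ttr-46* (T07C12.7; chromosome V, 9951233 to 9952178, plus strand, WBcel235), one of the members for which no function is given here. Its counts in libraries A, B and C were 143, 105 and 161 in the control group, whereas the RNAi group had 24, 10 and 28. After scaling these were 8.69, 8.54 and 10.4 CPM against 1.20, 0.449 and 1.31 CPM. The control libraries lay close together, every RNAi library was far below every control library, and RNAi library B was the lowest. The mean level was 9.19 ± 1.00 CPM in the control and 0.987 ± 0.470 CPM with *elt-2* RNAi (SD, n = 3), a 9.28-fold lower level (log2 fold change -3.21, SE 0.46, edgeR adjusted p = 0.0116). In the order of levels *ttr-46* moved from place 15 among the 44 members to place 35. This call was kept under all 13 alternative settings, with adjusted p of at most 0.0602.

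*ttr-48* (ZC64.2; chromosome X, 3840869 to 3842448, minus strand) had 202, 112 and 142 counts in the control and 88, 76 and 64 counts with *elt-2* RNAi. The levels were 12.3, 9.11 and 9.13 CPM against 4.40, 3.41 and 3.00 CPM, so that the groups did not overlap and control library A was the highest. With CPM scaled by total counts the groups of *ttr-48* overlapped. The log2 fold change was -1.50 (SE 0.36, edgeR adjusted p = 0.0772). *ttr-25* (Y51A2D.10; chromosome V, 18556714 to 18558099, plus strand) had 34, 50 and 54 counts in the control and 22, 22 and 23 counts with *elt-2* RNAi. Its RNAi libraries were nearly alike at 1.10, 0.988 and 1.08 CPM, all below the control libraries at 2.07, 4.07 and 3.47 CPM. The log2 fold change of *ttr-25* was -1.59 (SE 0.40, edgeR adjusted p = 0.0948). Both calls depended on the settings: *ttr-48* was called in 5 of the 13 alternatives and *ttr-25* in 6. With library size as the scaling, at an adjusted p under 0.05, or without control library B, control library C or any single RNAi library, *ttr-46* alone was called.

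**Figure D2:**
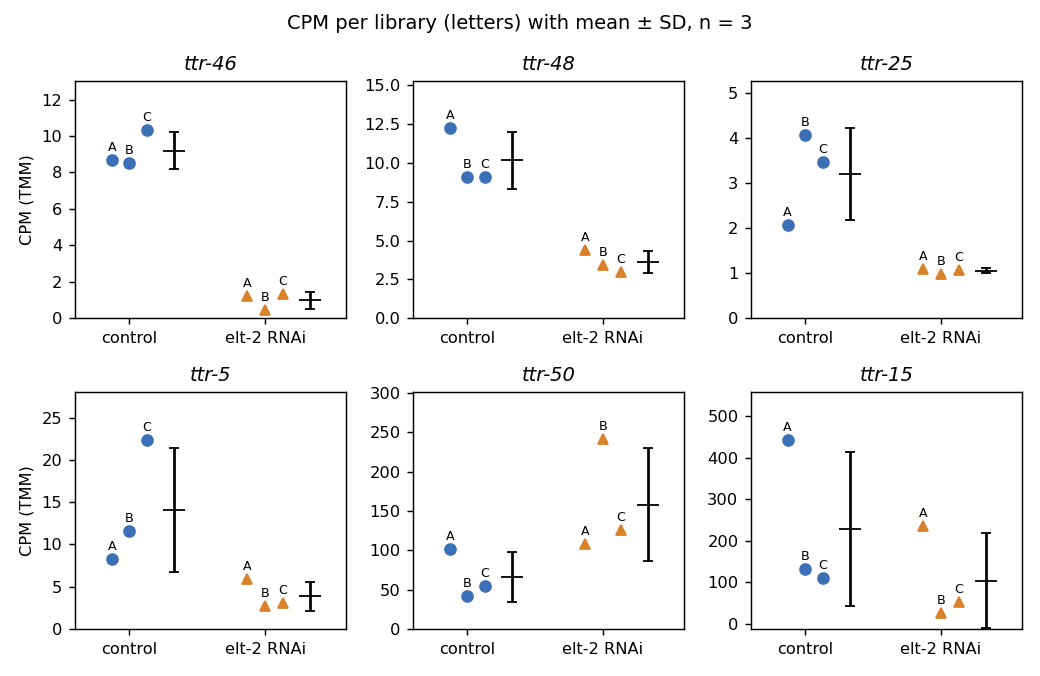
CPM of 6 *ttr* genes in each library, control as circles and *elt-2* RNAi as triangles with the replicate letter, and the mean ± SD of 3 libraries as a bar; each panel has its own linear axis. With TMM the groups are apart in *ttr-46*, *ttr-48*, *ttr-25*, *ttr-5* and *ttr-50* (the last one higher with RNAi) and overlap in *ttr-15*, where library A is the highest of each group. With CPM scaled by total counts, not drawn here, the groups of *ttr-48*, *ttr-5* and *ttr-50* overlap as well.

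Some members that did not pass the test also had groups that did not overlap. In 15 of the 38 tested members (39.5%), the 3 called genes among them, all 3 RNAi values lay below all 3 control values. The same held for 10.9% of all genes tested. The reverse order was found in 2 members (5.26%), against 7.06% of all genes. These counts rest on the scaling. With CPM scaled by total counts alone, an alternative chosen after the data were seen, 5 members lay lower (13.2%, against 6.25% of all genes) and 1 lay higher (2.63%, against 9.40%). The 5 were *ttr-46*, *ttr-25*, *ttr-30*, *ttr-32* and *ttr-24*.

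Among the members that were not called, *ttr-5* had the most negative log2 fold change. It had 137, 143 and 348 counts in the control and 117, 60 and 65 counts with *elt-2* RNAi, or 8.32, 11.6 and 22.4 CPM against 5.85, 2.70 and 3.05 CPM. Control library C was the highest, and the separation between control A and RNAi A was small. The log2 fold change of *ttr-5* was -1.87 (SE 0.49) with an edgeR adjusted p of 0.106, above the threshold of 0.10. The gene was called in 4 of the 13 alternatives.

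*ttr-44* stood at 11.9, 15.5 and 25.1 CPM in the control and 7.11, 5.12 and 6.66 CPM with *elt-2* RNAi (log2 fold change -1.47, SE 0.41, edgeR adjusted p = 0.127). *ttr-30* stood at 2.01, 4.07 and 4.56 CPM and at 1.40, 0.943 and 1.41 CPM (log2 fold change -1.50, SE 0.43, edgeR adjusted p = 0.136). In both genes control library A was the control nearest to the RNAi libraries. 6 more members kept their groups apart with log2 fold changes of -1 or lower: *ttr-8* at -1.48, *ttr-32* at -1.38, *ttr-21* at -1.28, *ttr-33* at -1.22, *ttr-24* at -1.21 and *ttr-31* at -1.11, with edgeR adjusted p between 0.171 and 0.324.

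*ttr-33*, whose protein protects dopaminergic neurons, had 6.62, 7.24 and 16.6 CPM in the control and 4.95, 3.23 and 4.87 CPM with *elt-2* RNAi. Its control libraries A and B lay close to the RNAi libraries and control C lay far above them (SE 0.45, edgeR adjusted p = 0.243). *ttr-33* lies within the span of *mig-6* on the opposite strand. *mig-6*, which encodes a papilin of the extracellular matrix, had between 38.5 and 40.9 CPM in the control and between 28.2 and 72.3 CPM with *elt-2* RNAi (log2 fold change 0.25, edgeR adjusted p = 0.826).

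The most abundant members changed less clearly. *ttr-15* (T07C4.5; chromosome III, 10337847 to 10339440, plus strand) had the highest mean level in the control. Its counts were 7295, 1621 and 1704 in the control and 4698, 564 and 1091 with *elt-2* RNAi, or 443, 132 and 110 CPM against 235.1, 25.3 and 51.1 CPM. Library A was several times the other libraries in both groups, and the groups overlapped. The log2 fold change of *ttr-15* was -1.14 with an SE of 0.83 (edgeR adjusted p = 0.567), the widest error among the tested members, and it lay between -2.57 and -0.22 over the alternatives.

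*ttr-16* and *ttr-17*, neighbours on chromosome IV, were the second and the fourth in the control. *ttr-16* had 73.2, 83.9 and 146 CPM in the control and 65.2, 44.3 and 74.5 CPM with *elt-2* RNAi (log2 fold change -0.72, edgeR adjusted p = 0.511). *ttr-17* had 34.2, 39.2 and 52.8 CPM and 33.4, 16.0 and 32.5 CPM (log2 fold change -0.62, edgeR adjusted p = 0.562). Control C was the highest and RNAi B the lowest library for both genes. *ttr-41* was among the steadiest members within a group, at 22.1, 26.1 and 26.2 CPM in the control and 16.5, 14.2 and 14.5 CPM with *elt-2* RNAi (log2 fold change -0.72, edgeR adjusted p = 0.417). Its groups did not overlap, but the difference did not pass the test.

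*ttr-2* had 36.9, 26.8 and 39.5 CPM in the control and 30.2, 31.8 and 28.0 CPM with *elt-2* RNAi (log2 fold change -0.20, SE 0.40, edgeR adjusted p = 0.843). The RNAi values of *ttr-2* fell inside the control range, and with library size as the scaling its log2 fold change was 0.13. *ttr-18* (log2 fold change -1.19, edgeR adjusted p = 0.364) and *ttr-45* (log2 fold change -1.35, edgeR adjusted p = 0.361) were the remaining genes among the 8 highest in the control. Both had overlapping groups and were highest in control B, where *ttr-18* reached 42.9 CPM and *ttr-45* reached 38.8 CPM, against at most 29.8 and 13.3 CPM in the other libraries.

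*ttr-50* (F58B3.9; chromosome IV, 11640047 to 11641015, minus strand) went the other way. Its counts were 1675, 511 and 843 in the control and 2162, 5361 and 2671 with *elt-2* RNAi, or 102, 41.6 and 54.2 CPM against 108, 241 and 125 CPM. RNAi library B was far above the rest, while control A and RNAi A differed by little. The mean level was 65.8 ± 31.8 CPM in the control and 158 ± 72.1 CPM with *elt-2* RNAi (SD, n = 3), a log2 fold change of 1.26 (SE 0.53, edgeR adjusted p = 0.308). The gene moved from the third place in the order of levels to the first, but the difference did not pass the test, nor did it under any alternative. With CPM scaled by total counts the groups of *ttr-50* overlapped.

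*ttr-50* has its 3′ end against that of *rbm-17*, a splicing factor gene on the opposite strand, and the annotated genes share 51 bases there. *rbm-17* had 38, 20 and 54 counts in the control and 81, 108 and 60 counts with *elt-2* RNAi (log2 fold change 0.66, edgeR adjusted p = 0.496). Whether the counting used the strand is not given in the sources used here, so reads in such an overlap cannot be assigned to one gene, although *rbm-17* had far fewer counts than *ttr-50*. 12 members, 9 of them tested, overlapped a protein-coding gene on the opposite strand. *ttr-39* shares 71 bases with the kinetochore gene *ndc-80*, whose log2 fold change was 0.87 (edgeR adjusted p = 0.368). *ndc-80* had 100, 48 and 82 counts in the control and 219, 260 and 113 counts with *elt-2* RNAi. *ttr-39* had fewer in every library, with 55, 33 and 48 counts and 107, 131 and 67 counts. *ttr-44* shares 191 bases with R11G10.3, whose log2 fold change was -2.09 (edgeR adjusted p = 0.216). R11G10.3 had 12, 57 and 39 counts in the control and 9, 25 and 5 counts with *elt-2* RNAi. *ttr-44* had more in every library, with 196, 191 and 390 counts and 142, 114 and 142 counts. *ttr-16* shares 239 bases with *lin-3*, whose log2 fold change was -0.59 (edgeR adjusted p = 0.59). *lin-3* had between 423 and 799 counts in a library and *ttr-16* between 987 and 2269, so the level of *ttr-16* is uncertain to that extent.

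Besides *ttr-50*, 5 tested members had a log2 fold change above 0. *ttr-20* had 2.07, 0.895 and 2.51 CPM in the control and 3.05, 3.50 and 3.23 CPM with *elt-2* RNAi, with no overlap (log2 fold change 0.83, SE 0.43, edgeR adjusted p = 0.412). *ttr-39* had 3.34, 2.68 and 3.09 CPM and 5.35, 5.88 and 3.14 CPM (log2 fold change 0.66, SE 0.37, edgeR adjusted p = 0.452), RNAi C lying within the control range. How many of the reads counted for *ttr-39* came from the overlapping *ndc-80* was not tested. The remaining 3 were *ttr-54*, *ttr-35* and *ttr-36*, at 0.53, 0.33 and 0.01. Of the 16 tested members not described singly by the rule for naming genes, 13 had a log2 fold change below 0 and 3 above, between -1.12 and 0.53, and their mean control levels ran from 0.848 to 12.1 CPM.

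**Figure D3:**
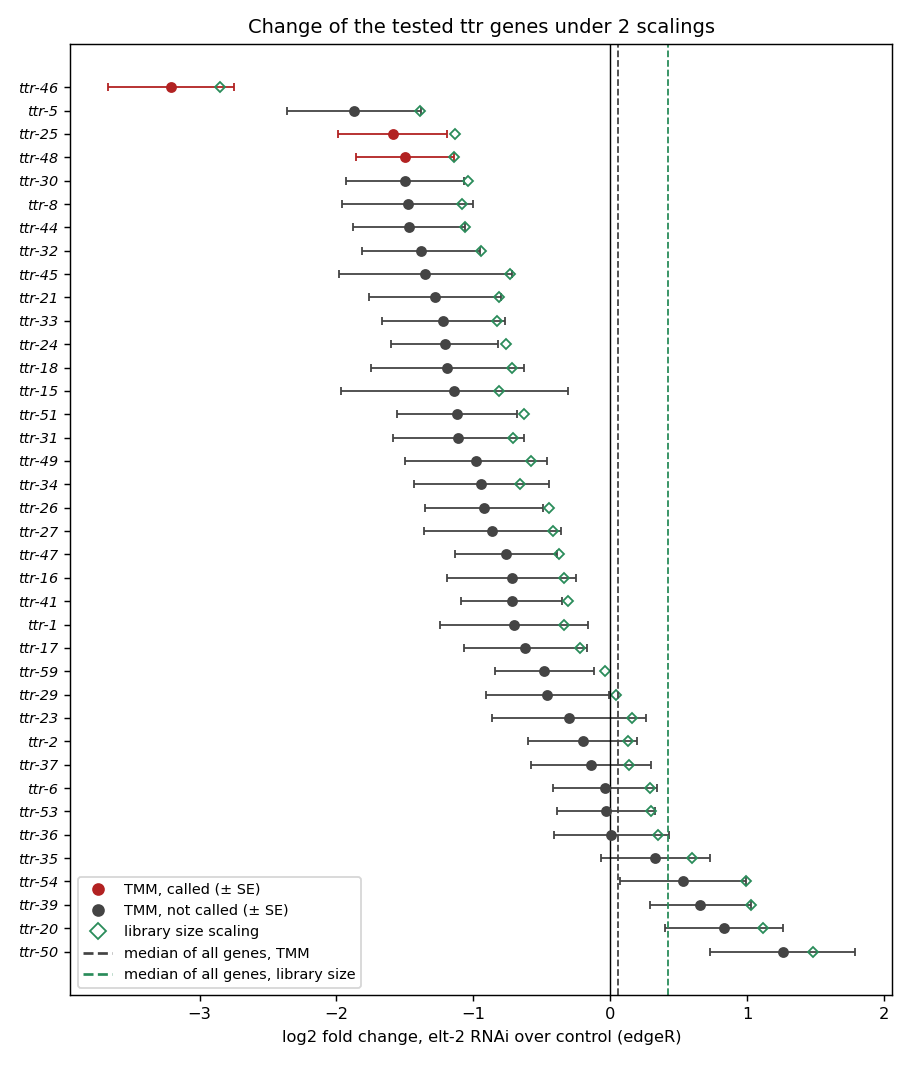
Log2 fold change (*elt-2* RNAi over control) of the 38 tested *ttr* genes, circles with SE from TMM scaling and open diamonds from library size scaling; dashed lines give the median of all genes tested, 0.06 with TMM and 0.42 with library size. The 3 called genes are in red; 32 circles and 26 diamonds lie below 0, and the diamonds lie to the right of the circles together with their line.

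The scaling moved the family as it moved all genes. With library size in place of TMM the median log2 fold change of the members was -0.44 and that of all genes was 0.42, a difference of -0.86 between them, against -0.95 with TMM. With library size 26 of the 38 members lay below 0 in place of 32. A change of scaling moves the members and all genes together, so this difference had little room to change and says little about the family. The sign of the members near 0 did not hold, and 1 member was called lower in place of 3.

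Summed over the 44 members, the family took 870.8, 594.3 and 686.6 CPM in control libraries A, B and C and 613.7, 475.4 and 447.9 CPM in RNAi libraries A, B and C. The sums overlapped, control B lying below RNAi A, and they were set to a large extent by a pair of genes that went in opposite directions. *ttr-15* made up 50.9, 22.2 and 15.9% of the family in the control and 38.3, 5.33 and 11.4% with *elt-2* RNAi. *ttr-50* made up 11.7, 6.99 and 7.89% in the control and 17.6, 50.6 and 28.0% with *elt-2* RNAi. In RNAi library B, *ttr-50* thus gave more of the family's reads than all other members together. The other 42 members summed to 325.7, 421.0 and 522.9 CPM in the control and to 270.5, 209.3 and 271.5 CPM with *elt-2* RNAi, or 423.2 ± 98.62 against 250.4 ± 35.61 CPM (SD, n = 3). These groups did not overlap, but both genes left out were chosen after their values were seen, and the separation rests on the scaling: with CPM scaled by total counts the sums were 391.3, 259.5 and 462.7 CPM in the control and 375.9, 238.3 and 261.9 CPM with *elt-2* RNAi, which overlap.

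**Figure D4:**
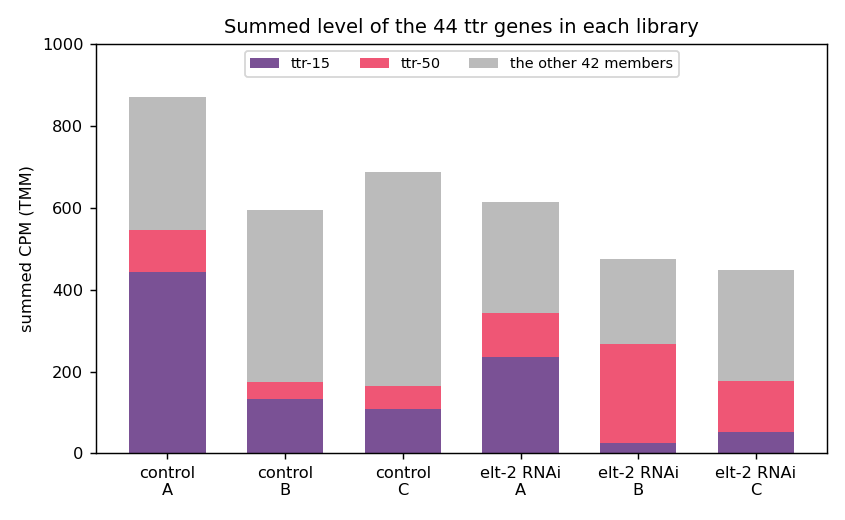
Summed CPM (TMM) of the 44 *ttr* genes in each library, split into *ttr-15*, *ttr-50* and the other 42 members. The grey part is between 325.7 and 522.9 CPM in the control and between 209.3 and 271.5 CPM with *elt-2* RNAi, while *ttr-15* is largest in control A and *ttr-50* in RNAi B.

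The libraries of a group did not carry the difference equally. Each tested member was set relative to its own mean over the 6 libraries, as log2(CPM + 0.5). The median over members was 0.05, 0.25 and 0.55 in control libraries A, B and C and -0.22, -0.62 and -0.21 in RNAi libraries A, B and C, while the same median over all genes lay between -0.03 and 0.02. Control C held the highest of the 6 values for 21 of the 38 members, and RNAi B held the lowest for 19. Control A was the control library nearest to the RNAi group. Leaving out control C brought the median log2 fold change of the members to -0.66, and leaving out RNAi B brought it to -0.59. Without control A 7 members were called, and *ttr-48* was not among them, while 4.93% of all genes were called lower in that fit.

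**Figure D5:**
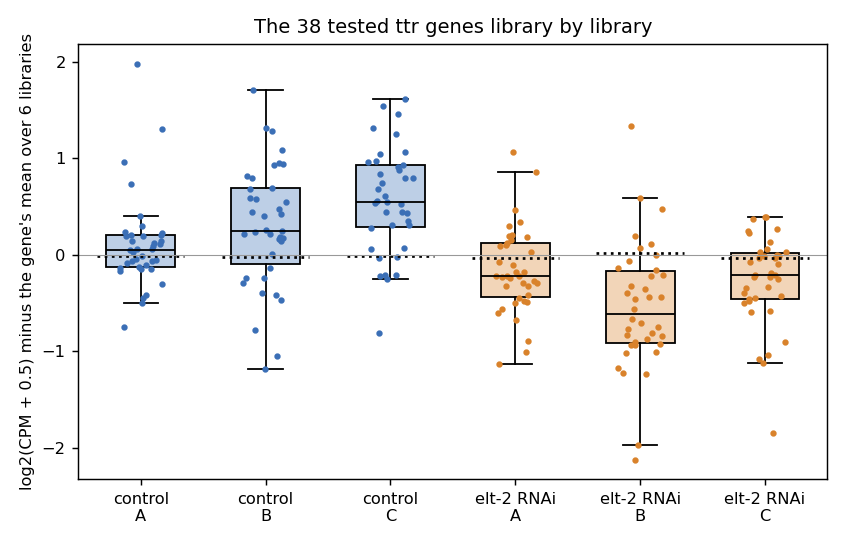
Deviation of each of the 38 tested *ttr* genes from its own mean over the 6 libraries, log2(CPM + 0.5), by library. Points are genes, boxes give the quartiles and median, whiskers reach at most 1.5 times the interquartile range, and dotted lines give the median of all genes tested. Box medians run from 0.05 to 0.55 in the control and from -0.62 to -0.21 with *elt-2* RNAi.

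The members are scattered over 5 chromosomes, and many *ttr* genes lie in small groups. Of the 44 members, 2 are on chromosome II, 7 on III, 9 on IV, 15 on V and 11 on X, and none is on chromosome I. All 12 tested members on chromosome V, all 6 on III and both on II had a log2 fold change below 0, as had 7 of 9 on X and 5 of 9 on IV. The 6 members above 0 were thus on IV (4) and X (2). Among all genes tested, 54.4% on V, 53.9% on X, 47.2% on IV, 43.7% on II and 40.8% on III lay below 0.

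With a distance of at most 10 kb between neighbours, 29 of the annotated *ttr* genes, members or not, fell into 12 groups. In 9 of these groups 2 or more members were tested, and in 8 all tested members of the group had the same sign, in a family where 84.2% of tested members were below 0. The group that holds *ttr-25* is a run of 3 genes on chromosome V with no other coding gene between them, and the 3 had log2 fold changes of -1.21 (*ttr-24*), -1.59 (*ttr-25*) and -0.92 (*ttr-26*). *ttr-8* and *ttr-32*, divergent neighbours on chromosome III 1063 bases apart, had -1.48 and -1.38. *ttr-51* and *ttr-45*, divergent on chromosome IV, had -1.12 and -1.35. Neighbours could also differ in size, as *ttr-59* (-0.48) and *ttr-30* (-1.50), 279 bases apart on the same strand of chromosome X. *ttr-36* and *ttr-35* on X were near or above 0 (0.01 and 0.33). The nearest tested genes outside the family on either side of the members, 56 in all, had a median log2 fold change of -0.21. Of these, 37 lay below 0, 1 was called lower (T21C9.6, beside *ttr-23*, log2 fold change -2.56, edgeR adjusted p = 0.0561) and none was called higher. Neighbouring *ttr* genes can resemble each other in sequence, and how reads matching more than 1 of them were counted is not given in the sources used here, so the values of near-identical copies are uncertain.

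In annotated structure the members are short and alike. The coding length had a median of 429 bases (143 codons) and ran from 390 to 639 bases except in *ttr-14*, where it was 1218 bases (406 codons). There were 3 exons in 21 members and 2 exons in 12, and at most 9. The called genes *ttr-46* and *ttr-48* have 179 and 164 codons, longer than the median, and *ttr-25* has 141.

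The engulfment pathway, in which TTR-52 acts outside the cell, was read from a list of 17 genes for the recognition and removal of dying cells and for cell death itself. Of the 16 tested, none was called, 7 were below 0, and the median log2 fold change was 0.07. At an unadjusted p under 0.05 with edgeR none was lower and 2 were higher, where 4.33% of all genes were higher. With TMM, 3 (18.8%) had all RNAi values above all control values, against 7.06% of all genes. The DESeq2 Wald test called 0. The log2 fold changes ran from -0.64 to 1.29. The list includes *ced-1*, the receptor (166, 156 and 164 counts in the control and 164, 311 and 202 counts with *elt-2* RNAi, log2 fold change -0.07, edgeR adjusted p = 0.946), and *ced-6*, its adaptor (log2 fold change 0.34, edgeR adjusted p = 0.724).

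Tissue markers were read beside the family. Of 10 intestinal markers, 3 were called lower and 8 were below 0, with a median log2 fold change of -1.16, and their summed level was between 496.4 and 1269 CPM in the control and between 78.66 and 376.9 CPM with *elt-2* RNAi. The 3 were *mtl-2*, a metallothionein (-5.88), *cpr-6*, a cysteine protease (-2.50), and *vha-6*, a subunit of the intestinal proton pump (-2.32), with edgeR adjusted p of 0.0114, 0.0241 and 0.0378. The summed level came mostly from *asp-1* (mean 441.6 CPM in the control, 59.95 CPM with *elt-2* RNAi) and *act-5* (221.3 and 99.47 CPM). Neither of these genes was called (edgeR adjusted p = 0.142 and 0.574). The markers above 0 were *elt-7* (0.74) and *ges-1* (0.15), also not called. Of 10 neuronal markers none was called and 7 were below 0, with a median of -0.80, and their summed level was between 200.8 and 302.7 CPM in the control and between 114.4 and 191.0 CPM with *elt-2* RNAi. With TMM the sums of the groups did not overlap in either list. With CPM scaled by total counts the intestinal sums stayed apart (455.7 to 782.1 against 109.3 to 363.4 CPM) and the neuronal sums overlapped (186.6 to 241.2 against 130.2 to 221.9 CPM).

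All 6 markers of body wall muscle were below 0 and none was called (median -0.95), with 7342 CPM in control B and 763.3 to 3250 CPM in the other libraries. The 10 epidermal markers had a median of 0.42 with 2 below 0, and RNAi C held 3265 CPM of them against 404.2 to 951.4 CPM in the other libraries. The medians were -0.63 over 6 pharyngeal, -0.36 over 4 germline and -0.12 over 3 coelomocyte markers, with no call in any of these lists. The DESeq2 Wald test called 4 intestinal, 1 neuronal and 1 muscle marker lower, and none of the epidermal, pharyngeal, germline or coelomocyte markers. At an unadjusted p under 0.05 with edgeR, 5 intestinal, 3 neuronal, 1 muscle and 1 pharyngeal marker were lower. On that measure 1 epidermal marker was higher, and none of the germline or coelomocyte markers passed. No marker was at 0 in every library. The part of these tissues in the difference of the *ttr* genes was not tested. Without control B, 34 of 39 tested members were below 0 with a median of -0.88. Without RNAi C, 33 of 38 were below 0 with a median of -0.87. In each of these fits *ttr-46* was the only member called.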

How the data were processed

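RNA from 6 libraries of L1 larvae (3 control, 3 *elt-2* RNAi) was analysed from the table of raw counts of reads per gene that the authors deposited, which is not normalized. The submitters' processing notes name Bowtie 0.12.7; the counting tool, the genome build and the annotation are not given in the sources used here. Of 20351 gene identifiers, 19869 matched the Ensembl annotation of WBcel235, which gave names and positions. The annotation names 58 *ttr* genes, of which 4 (*ttr-12*, *ttr-13*, *ttr-19* and *ttr-57*) were not analysed here.

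Counts were tested with edgeR 4.0.16 in R 4.3.3 (quasi-likelihood test, TMM factors, filterByExpr, group as the only term), p-values being adjusted by Benjamini-Hochberg across all 10063 genes that passed the filter, with calls made at an adjusted p under 0.10. CPM values are counts scaled to a common, TMM-corrected library size. The SE of a log2 fold change is its size over the square root of F. The fit was tested on simulated data with the same dispersion for every gene and no difference in composition between libraries. That test does not cover the dependence on scaling. Total counts of 13700707 to 22124319 per library set the precision, and the limit of 3 counts covers counting error only. The series describes biological triplicates.

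Alternatives were library size scaling, size factors and the Wald test of DESeq2 1.42.0, other filters, a block for the replicate letter, an adjusted p under 0.05 and leaving out each library in turn.

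Members and gene lists were chosen with earlier results of these data known. Members were named with values where they were called, were among the 8 highest in the control, had groups that did not overlap with a log2 fold change of at least 1 in size, had a published role (*ttr-52*, *ttr-11*, *ttr-33*, *ttr-2*) or were among the 3 largest falls and rises. Others given by name, such as neighbours on a chromosome, were chosen after their values were seen. Promoter motifs, protein sequences and transthyretin-like genes without a *ttr* name were not analysed here.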

Additional observations from a re-analysis of the deposited data

How the results depend on the processing

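None of the alternatives called a *ttr* gene higher: at an unadjusted p under 0.05 with edgeR 1 member was higher, and DESeq2's Wald test called 0. The main counts were 3 members lower, with 263 genes lower (2.61%) and 20 higher (0.199%) over all genes. Library size scaling gave 1 member lower, 149 genes lower (1.48%) and 52 higher (0.517%). The medians were then -0.44 over members and 0.42 over all genes, and 74.1% of all calls were lower in place of 92.9%. With this scaling *ttr-2* changed sign, to 0.13. The DESeq2 Wald test gave 6 members lower, with 518 genes lower (5.15%) and 90 higher (0.894%). Without a filter beyond 1 count, 7 of 44 members were lower, with 790 genes lower (4.54% of 17388) and 238 higher (1.37%). Requiring 10 counts on average gave 12 genes higher (0.121%). An adjusted p under 0.05 gave 1 member lower, with 132 genes lower (1.31%) and 7 higher (0.0696%). Leaving out 1 library gave 1 to 7 members lower, 77 to 520 genes lower (0.744 to 4.93%) and 3 to 63 higher (0.0286 to 0.597%). The medians were then -0.94 to -0.59 over members and 0.02 to 0.08 over all genes. A stricter threshold can only lower the number of calls. The cause of the other differences was not tested. Leaving out 1 library went both ways: 7 members were called lower without control A, and 1 in every other fit of this kind. DESeq2 size factors gave the 3 calls of the main counts.

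The groups share the replicate letters A, B and C. The correlation of deviations was 0.321, 0.390 and 0.0261 for equal letters A, B and C. For unequal letters it lay between -0.526 (control B with RNAi A) and 0.315 (control C with RNAi A). The values for letters A and B thus exceeded those of all unequal letters, and the value for C did not. Whether the letters mark a pairing is not settled by these values, and the main fit used no block. With the replicate block 5 members were lower (*ttr-5* and *ttr-44* besides the 3), with 444 genes lower (4.41%) and 51 higher (0.507%).

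Over the 22 named tested members and all alternatives, 257 of 286 values kept their direction and side of the threshold, 13 passed it newly, 15 no longer passed it and 1 reversed. Members under about 1 CPM are limited by depth.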
